A study of Mus musculus with 20 samples.

Results

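The genes described here encode voltage-gated and potassium channels of gut mesenchyme. They were chosen by symbol alone, as every gene in the count tables whose name follows the Kcn, Scn (sodium channel alpha and beta) or Cacna1 (calcium channel alpha1) pattern, which gave 115 of 43280 genes. Among them were 40 voltage-gated potassium channel alpha subunits, 15 inward rectifiers, 14 two-pore-domain channels, 8 calcium- or sodium-activated potassium channels and 15 auxiliary potassium channel subunits. The rest were 9 sodium channel alpha subunits, 4 sodium channel beta subunits and 10 calcium channel alpha1 subunits. The sodium channel gene listed under the older symbol Scn2a1 did not match the pattern and was not included.

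The study asked how the mesenchyme of the stomach and intestine differs and how the loss of Eed, a core subunit of the Polycomb complex that methylates lysine 27 of histone H3, alters it. RNA-seq was done on GFP+ cells sorted at E13.5 from embryos labelled C57BL/6, although the study's methods give mixed backgrounds for the Eed and reporter lines. The embryos carried Bapx1-cre and the Rosa26mTmG reporter, with 2 control and 2 Eed KO (Eed fl/fl) libraries for each of the stomach and intestine. Adult small intestinal mesenchyme was sorted as GFP+ cells from tamoxifen-treated mice of about 10 weeks that carried Pdgfrb-CreERT2 and Rosa26mTmG, with 2 libraries labelled control and 2 labelled Eed KO (Eed fl/fl). Accessible regions from ATAC-seq of the 4 embryonic groups were given as 1 pooled list for each group. Recombination was limited to the cells in which each driver is active. These were the gut mesenchyme from early development for Bapx1-cre and the adult cells that express Pdgfrb for Pdgfrb-CreERT2. All groups shared the reporter and were sorted for GFP, but tissue digestion and the size gates of the sort differed between embryo and adult.

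Potassium channels carry potassium out of the cell and hold the resting membrane potential negative, inward rectifiers and two-pore-domain channels at rest and voltage-gated channels after depolarization. Voltage-gated sodium and calcium channels depolarize the cell, and calcium entry through the L-type and T-type alpha1 subunits drives contraction and pacemaking in gut muscle. Auxiliary subunits and the electrically silent alpha subunits of the Kcnf, Kcng, Kcns and Kcnv families form no working channel alone and alter the channels of others.

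The embryonic libraries held 30236159 to 39606157 gene counts and the adult libraries 11404712 to 15903642, of which channel genes took 1064 to 1500 and 573 to 784 CPM. CPM are gene counts scaled to library size, and TPM, used for levels, are also scaled to exon length. Eed checked the embryonic labels, since it stood at 38.1 to 41.5 CPM in the controls and 7.40 to 11.5 CPM in the Eed KO libraries. In the adult, Eed stood at 29.7 and 33.4 CPM in the controls and at 25.7 and 25 CPM in the libraries labelled Eed KO. Its log2 fold change of −0.32 (SE 0.21) did not pass in edgeR's quasi-likelihood test (adjusted p = 0.32), so the adult genotype was not visible in the gene's total count. The study reports a separate measurement of Eed deletion efficiency in isolated adult cells of mice with the same Cre driver, which was not used here. The mesenchymal markers Pdgfra, Col1a1 and Col3a1 were detected in every library. The 5 macrophage and leukocyte markers found summed to 4.03 to 12.7 CPM in the embryonic libraries, 527 and 656 CPM in the adult controls and 13100 and 11500 CPM in the libraries labelled adult Eed KO. Eed KO intestine replicate 2 stood apart in the smooth muscle marker Myh11, with 1170 CPM against 121 to 268 CPM in the other 7 embryonic libraries. Because these were sorted populations measured in bulk, a lower level can mean fewer cells of a type or less RNA per cell, which cannot be told apart. Each group had only 2 libraries. The p-values rest on the spread between replicate libraries, estimated over all embryonic groups together and over both adult groups together.

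Of the 115 channel genes, 47 reached 1 TPM or more in both libraries of the control intestine and 50 in both of the control stomach, against 30.9% and 31.4% of all genes. In the Eed KO embryos the intestine had 54 and the stomach 61 (31.9% and 32.7% of all genes). In the adult intestine it was 30 in the controls and 25 in the libraries labelled Eed KO (31.7% and 29.9% of all genes). Voltage-gated potassium channel alpha subunits took up most of the embryonic spread, with 17 and 19 members expressed in the control intestine and stomach and 21 and 25 in the Eed KO, and they were fewer in the adult, with 7 and 4. No sodium channel alpha subunit reached 1 TPM in both libraries of either embryonic control. Of all 115 genes, 27 were too low to be tested in the embryonic libraries and 68 in the adult ones, and none was at 0 counts in all 12 libraries.

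**Figure D1:**
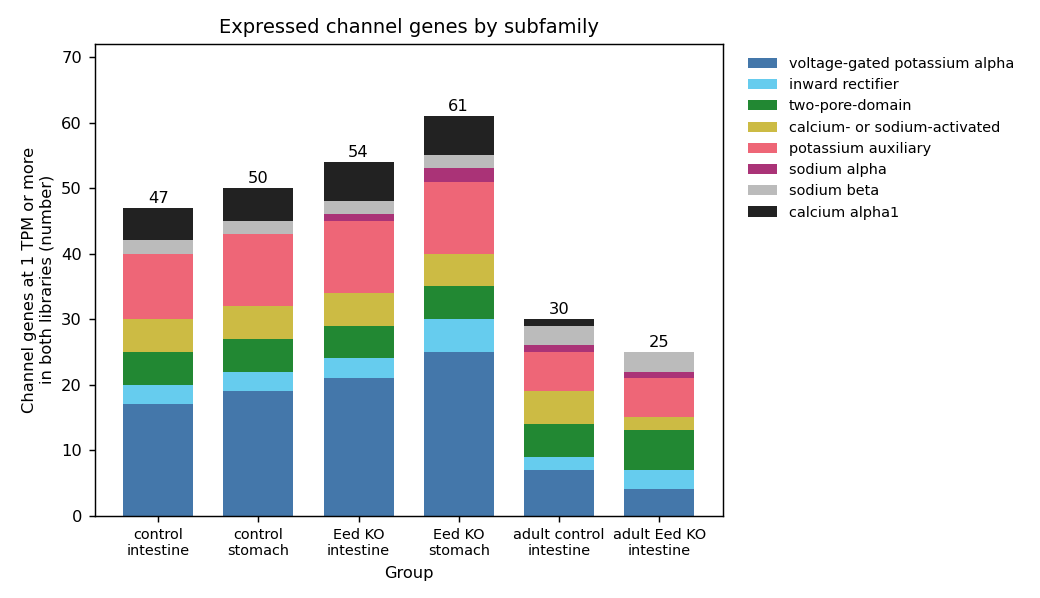
The number of channel genes at 1 TPM or more in both libraries of a group (vertical axis) is stacked by subfamily for each of the 6 groups. The count was 47 and 50 in the embryonic controls, 54 and 61 in the Eed KO embryos, and 30 and 25 in the adult.

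A few genes supplied most of the channel transcripts in the embryonic controls. Kcnj8, which encodes the pore of the ATP-sensitive potassium channel of smooth muscle and pericytes, was the most abundant, at 150 and 181 TPM in the control intestine and 302 and 250 TPM in the control stomach, or 24.2% and 35.8% of the summed TPM of the channel genes. Kcnk3, an acid-sensitive two-pore-domain channel, stood at 141 and 136 TPM in the intestine against 23.2 and 26.3 TPM in the stomach. Kcnd3, an A-type potassium channel, followed at 34.9 to 57.5 TPM over the 4 control libraries. The others of the 10 most abundant were Kcnh2, the channel of the ERG current (30.1 to 35.8 TPM), and the T-type calcium channels Cacna1g (23.1 to 31.5 TPM) and Cacna1h (16.4 to 20.7 TPM). With them were the L-type calcium channel Cacna1d (14.4 to 20.4 TPM), Kcna5 (14.6 to 34.7 TPM) and the silent subunits Kcng1 (14.1 to 25.4 TPM) and Kcns3 (1.16 to 55.6 TPM). Over the 4 libraries Kcnj8 stood clear of the next gene, and each of the other 9 overlapped with a neighbour in this order. Cacna1c, the L-type calcium channel of mature gut muscle, was at 3.33 to 4.16 TPM, and Kcnma1, the pore of the large-conductance calcium-activated channel, at 1.85 to 4.84 TPM.

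The adult control intestine held another ranking. Kcnj8 was first again at 77.7 and 65.1 TPM, and next came Kcne4, an auxiliary subunit that inhibits voltage-gated potassium channels, at 49.4 and 54.8 TPM. Scn7a, a sodium channel relative that senses extracellular sodium, overlapped with it at 43.8 and 55 TPM. In the control embryonic intestine it stayed at or below 0.124 TPM. Kcnk2, a mechanically gated two-pore-domain channel, was at 34.3 and 31.0 TPM, Kcns3 at 18.4 and 24.6 TPM, Kcnk3 at 19.7 and 23.2 TPM and Kcnmb1, the beta subunit of the large-conductance channel in smooth muscle, at 18.4 and 23.5 TPM. Kcnn3, a small-conductance calcium-activated channel, Kcnk7 and Kcna5 completed the 10 most abundant, at 18.4 and 18.1, 14.4 and 11.8, and 5.91 and 12.8 TPM. Kcnd3, so abundant in the embryo, was at 0.0199 and 0 TPM, and Cacna1h was at 0.254 and 0.526 TPM. In the control intestine of both ages, 20 channel genes reached 1 TPM in both libraries, 27 did so in the embryo alone and 10 in the adult alone. These levels were not tested, because age, Cre driver, tissue digestion, sorted population, library kit and strandedness all changed together between embryo and adult and cannot be told apart.

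**Figure D2:**
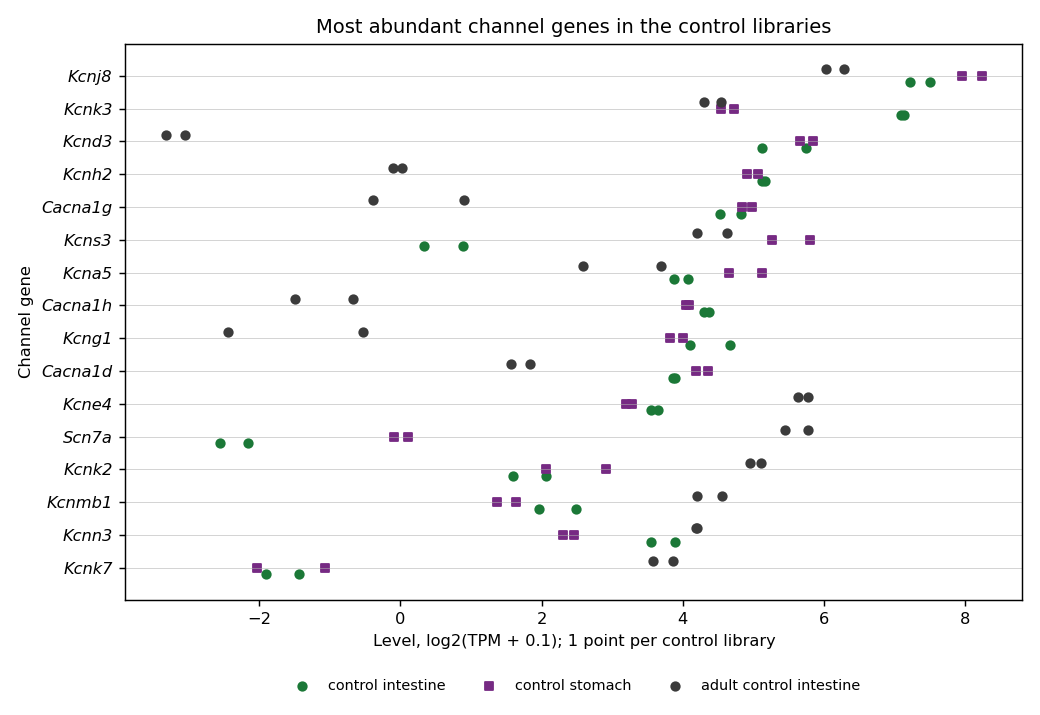
The 10 most abundant channel genes of the embryonic controls and the 10 of the adult controls, 16 genes in all, are plotted as log2(TPM + 0.1) (horizontal axis), with 1 point for each control library. Kcnj8 leads in all 3 groups, Kcnd3 lies near the left edge in the adult, and Kcnk3 and Kcns3 separate the embryonic intestine from the embryonic stomach.

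Between the control intestine and the control stomach, 15 of the 88 channel genes tested differed, 6 of them with more transcript in the intestine and 9 with more in the stomach, against 5.07% of all genes. The leading ones by count were Kcnk3 for the intestine and Kcns3 for the stomach. A gene was called here and below if its adjusted p in edgeR's quasi-likelihood test over all genes was under 0.05 and it changed more than 2-fold. Of all 16218 genes tested, 1.68% were called higher and 3.39% lower in the intestine, and of the tested channel genes 6.82% and 10.2%, with a median log2 difference of −0.25 against 0.00 for all genes.

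Kcnk3 stood at 182 and 170 CPM in the control intestine and at 29.0 and 33.0 CPM in the control stomach, a log2 difference of 2.5 (SE 0.24, adjusted p = 0.0013 in edgeR). The libraries of the organs did not overlap, and the level in the intestine was 5.67 times that in the stomach. Kcnn3 was at 29.1 and 35.6 against 11.8 and 13.1 CPM (log2 difference 1.38), and Kcnip1, an auxiliary subunit of A-type channels, at 15.5 and 8.62 against 4.06 and 4.16 CPM (1.55). The genes with fewer counts were Scn3a, a sodium channel of embryonic neurons, at 3.79 and 3.20 against 0.957 and 0.612 CPM (2.16), the R-type calcium channel Cacna1e at 2.53 and 3.73 against 0.725 and 1.10 CPM (1.77), and the silent subunit Kcns1 at 1.63 and 1.48 against 0.638 and 0.765 CPM (1.14, adjusted p = 0.046 in edgeR).

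Kcns3, which encodes a silent subunit that joins delayed rectifiers, stood at 38.5 and 56.1 CPM in the control stomach and at 1.21 and 1.75 CPM in the control intestine, a log2 difference of −5.01 (SE 0.30, adjusted p = 0.00026 in edgeR). Kcnh5, an ether-a-go-go channel, had 54 and 45 counts in the control stomach and 0 in both control intestine libraries. It was at least 29.2-fold higher in the stomach against a floor of 3 counts over the intestine libraries. This bound covers counting error only. The 2 genes were the most stomach-biased of the channel set.

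The other stomach genes were of lower level or smaller difference. Scn7a was at 2.35 and 2.04 CPM in the stomach against 0.309 and 0.168 CPM in the intestine (log2 difference −3.15), and the silent subunit Kcnv1 at 3.88 and 4.36 against 0.843 and 0.707 CPM (−2.40). Kcnj3, a subunit of the G protein-gated rectifiers, and Kcnc2, a fast delayed rectifier, rested on few counts (11 and 27, and 23 and 23, in the stomach libraries) and differed by −2.98 and −2.70 on the log2 scale. Kcna1, a delayed rectifier, was the most abundant of the rest, at 41.3 and 43.9 CPM in the stomach against 12.8 and 17.3 CPM in the intestine (−1.5). It was followed by the silent subunit Kcnf1 (10.0 and 9.69 against 2.92 and 4.58 CPM, −1.40) and the sodium-activated channel Kcnt2 (9.56 and 9.31 against 4.05 and 3.73 CPM, −1.28). Every one of these 15 genes had all libraries of one organ above all libraries of the other. That separation adds no evidence, because the genes were called on the same libraries. A further 2 channel genes passed the adjusted p but not the fold threshold, namely Kcnj8 (log2 difference −0.72, adjusted p = 0.026 in edgeR) and Kcna5 (−0.92, adjusted p = 0.022).

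By subfamily, 6 of 34 tested voltage-gated potassium alpha subunits were higher in the stomach and 1 in the intestine. Of the 8 calcium- or sodium-activated channels and the 6 tested sodium channel alpha subunits 1 was called in each direction. Markers of other cells differed between the organs in both directions. Higher in the intestine were 3 of 6 endothelial markers, with a sum of 14.9 to 20.5 CPM in the control libraries, the pericyte marker Rgs5 (log2 difference 1.09), Etv1 (1.03) and the smooth muscle markers Des and Synpo2, of which list the 8 summed to 4580 and 3190 CPM against 3070 and 3170 CPM. Higher in the stomach were the neuronal markers Stmn2 (−1.87) and Syt1 (−1.49), the epithelial marker Epcam (−1.83), the mesothelial marker Wt1 (−1.04) and the skeletal muscle marker Myf5 (−3.81, at or below 0.510 CPM). Other members of these lists went the other way without being called. Of those tested, 3 of 11 neuronal, 2 of 6 epithelial and 1 of 3 mesothelial markers lay higher in the intestine. The endothelial marker Kdr lay higher in the stomach, at 11.8 and 9.77 against 6.6 and 7.94 CPM. The part of these markers in the channel differences was not tested. Without control intestine replicate 1, control stomach replicate 1 or control stomach replicate 2, the genes higher in the intestine fell to 3, 2 and 3, and without control intestine replicate 1 those higher in the stomach fell to 5, while all 15 kept their direction and a fold change above 2. With spike-in scaling, 0 were higher in the intestine and 2 in the stomach, against 70 and 85 over all genes.

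**Figure D3:**
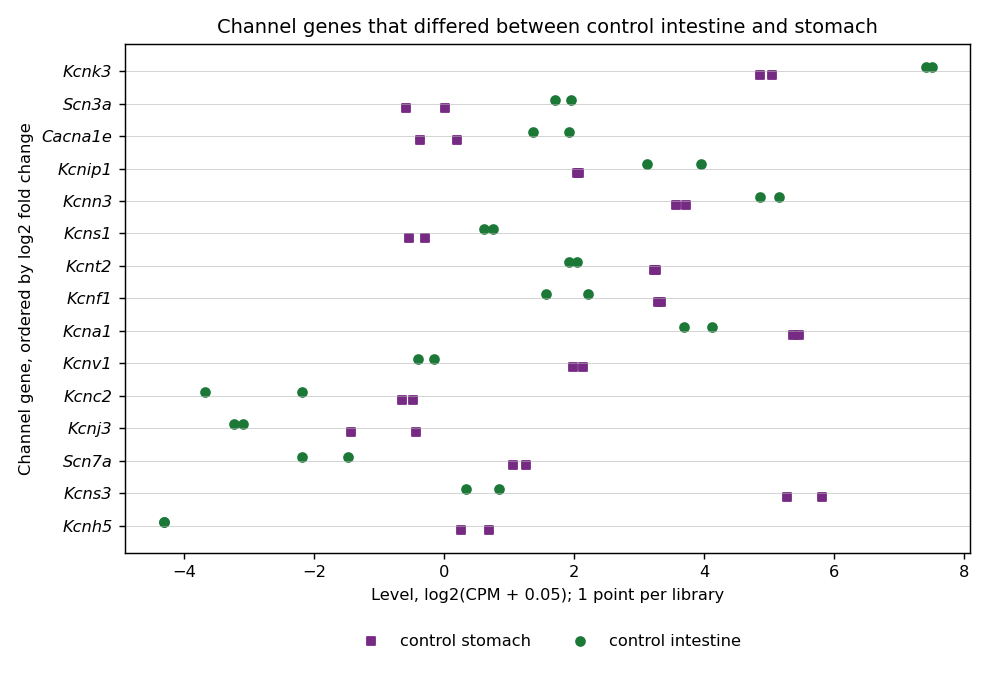
The 15 channel genes that differed between the organs are plotted as log2(CPM + 0.05) (horizontal axis), with 1 point for each control library, circles for the intestine and squares for the stomach. Kcnk3 is the most abundant intestine gene and Kcns3 the most abundant stomach gene, and Kcnh5 in the intestine lies at the left edge because it had 0 counts.

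Most channel genes had accessible chromatin near their start in every embryonic group. The start was taken as the outermost one in the authors' gene models. Within 1000 bp of it, 96 of 115 channel genes had an ATAC peak in the control intestine, 98 in the control stomach, 100 in the Eed KO intestine and 101 in the Eed KO stomach. Of all genes, 43.8%, 44.6%, 45.8% and 45.6% had one in these lists. Of the genes tested for expression in the embryos 87.8% to 88.9% had one, and of the 88 channel genes tested 82, 82, 84 and 83. The same 96 channel genes had a peak in all 4 lists, and 11 had none in any. Among the 11 was Kcna5, whose nearest RefSeq start lay 162637 bp from the start used, so peaks there were not counted. For some genes with a peak the RefSeq start was far away too, as for Kcnh2 (22013 bp) and Cacna1e (158581 bp). Of the 27 channel genes too low to be tested, 14 to 18 had a peak. The peaks were called on pooled replicates, so they have no replicate error and were not tested. The other 8 genes, chosen after their values were seen, had a peak in some lists. Kcnn4 had one in both Eed KO lists and in neither control list, Kcne2 and Scn3a in the Eed KO intestine alone, and Kcna10, Kcnj13 and Kcnv2 in the Eed KO stomach alone. Kcnmb3 had one in the control stomach alone, and Scn11a in all lists except the control intestine. All peaks of these 8 genes were weak, with −log10 q-values of 1.32 to 3.51, below the minimum of 5 in an alternative peak rule. Their absence from a list can therefore reflect the calling threshold.

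The promoters of 5 channel genes are given for the letters beside the peaks, since Kcns3 and Kcnh5 had the widest organ difference, Scn7a and Kcna7 rose in the Eed KO intestine and Kcnh1 rose in the Eed KO stomach alone. The sequences are from RefSeq on GRCm38.p6, run 5′ to 3′ on the gene's strand from 250 bases before to 50 bases after the start, and carry each CG dinucleotide in capitals. Of all 32851 promoters in the same table, 94.6% held at least 1 CG, with a median of 7. Kcns3 lies at chr12:11150793-11151092 on the minus strand with 9 CG, Kcnh5 at chr12:75177283-75177582 on the minus strand with 17. Scn7a lies at chr2:66784861-66785160 on the minus strand with 3, Kcna7 at chr7:45405710-45406009 on the plus strand with 4, and Kcnh1 at chr1:192190527-192190826 on the plus strand with 27. The table matched 83 of the 115 genes, too few for a comparison of CG content over the set.
Kcns3: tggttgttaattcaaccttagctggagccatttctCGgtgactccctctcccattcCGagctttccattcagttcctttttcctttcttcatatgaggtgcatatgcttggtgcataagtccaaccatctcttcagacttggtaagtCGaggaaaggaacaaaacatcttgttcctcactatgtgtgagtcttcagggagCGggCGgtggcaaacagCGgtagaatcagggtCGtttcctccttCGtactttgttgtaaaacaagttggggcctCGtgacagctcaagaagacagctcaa
Kcnh5: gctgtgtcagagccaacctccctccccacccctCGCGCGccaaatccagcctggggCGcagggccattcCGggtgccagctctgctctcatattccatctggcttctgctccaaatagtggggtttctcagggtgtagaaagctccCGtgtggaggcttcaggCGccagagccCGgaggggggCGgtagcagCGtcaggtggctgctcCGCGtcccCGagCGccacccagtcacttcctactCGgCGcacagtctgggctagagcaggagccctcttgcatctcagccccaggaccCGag
Scn7a: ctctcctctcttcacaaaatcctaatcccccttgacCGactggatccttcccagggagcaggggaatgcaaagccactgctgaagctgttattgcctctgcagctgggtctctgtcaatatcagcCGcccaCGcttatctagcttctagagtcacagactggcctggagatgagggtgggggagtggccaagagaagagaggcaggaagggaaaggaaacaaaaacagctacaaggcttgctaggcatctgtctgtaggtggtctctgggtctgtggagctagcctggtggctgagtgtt
Kcna7: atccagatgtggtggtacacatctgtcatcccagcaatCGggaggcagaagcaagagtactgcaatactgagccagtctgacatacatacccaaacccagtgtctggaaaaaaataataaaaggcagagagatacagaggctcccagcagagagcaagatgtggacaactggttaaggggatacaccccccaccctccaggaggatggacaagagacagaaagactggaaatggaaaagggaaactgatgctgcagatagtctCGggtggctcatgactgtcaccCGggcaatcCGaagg
Kcnh1: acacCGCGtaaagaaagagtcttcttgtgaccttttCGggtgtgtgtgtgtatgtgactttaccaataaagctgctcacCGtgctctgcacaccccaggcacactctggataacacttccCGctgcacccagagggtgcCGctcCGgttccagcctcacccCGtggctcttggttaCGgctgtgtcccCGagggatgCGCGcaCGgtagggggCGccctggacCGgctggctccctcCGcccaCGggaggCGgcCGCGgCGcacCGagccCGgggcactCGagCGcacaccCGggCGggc

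The Kcnh5 promoter was reached by a peak in all 4 lists, with a fold enrichment of 5.82 in the control intestine, where the gene had 0 counts, and of 5.71 in the control stomach, 6.26 in the Eed KO intestine and 5.51 in the Eed KO stomach. In the control intestine that peak ended inside the printed window, at position 75177496, and in the other lists it ran past the window. The Kcns3 window was reached by a peak only in the Eed KO lists (fold enrichment 4.86 for the intestine and 5.09 for the stomach), although in both control lists a peak of 5.19 and 5.46 ended within the gene, at positions 11150670 and 11150687, short of the window. For the peaks that overlapped the CG-poor Scn7a promoter the fold enrichment was 3.54 and 3.74 in the control intestine and stomach and 5.21 and 4.86 in the Eed KO. Kcna7, whose transcripts rose in both organs, had peaks of 4.63 and 5.18 in the controls and 3.80 and 4.08 in the Eed KO, and the CG-rich Kcnh1 promoter had 10.3 and 10.6 against 9.02 and 9.95.

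In the embryonic stomach, 17 channel genes rose and 4 fell in the Eed KO, among 88 tested, where 5.65% of all genes were called. Of all genes tested, 4.84% were called higher and 0.808% lower, and of the tested channel genes 19.3% and 4.55%, with a median log2 fold change of 0.46 against 0.00. In all, 7 subfamilies held a gene that rose. They were 7 of 34 voltage-gated potassium alpha subunits, 3 of 6 sodium channel alpha subunits, 2 of 8 calcium channel alpha1 subunits and 2 of 6 two-pore-domain channels. They also were 1 of 10 inward rectifiers, 1 of 12 auxiliary potassium subunits and 1 of 4 sodium channel beta subunits. None of the 8 calcium- or sodium-activated channels passed.

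Values are given for 14 of the 17 genes that rose. The fast delayed rectifier Kcnc1 stood at 0.145 and 0.280 CPM in the control stomach and 1.64 and 1.89 CPM in the Eed KO (log2 fold change 3.01, SE 0.53, adjusted p = 0.016 in edgeR). Kcnh3, an ether-a-go-go channel, went from 2.78 and 1.89 to 8.61 and 14.9 CPM (2.33, SE 0.41, adjusted p = 0.017). Both are better known from neurons than from mesenchyme. Kcnh1 was at 2.03 and 2.55 against 6.63 and 9.65 CPM (1.83), and Kcna7, a delayed rectifier of muscle, at 0.319 and 0.204 against 1.31 and 1.23 CPM (2.28).

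Among sodium channels, the neuronal alpha subunits Scn8a (2.55 and 2.22 to 4.91 and 5.16 CPM, log2 fold change 1.08) and Scn1a (1.39 and 1.15 to 2.52 and 2.69 CPM, 1.04) rose, and the beta subunit Scn3b went from 0.406 and 0.331 to 1.34 and 2.36 CPM (2.32). Both calcium channels that were called rose, Cacna1b, the N-type channel, from 2.03 and 2.35 to 5.37 and 7.87 CPM (1.59) and Cacna1e from 0.725 and 1.10 to 3.33 and 2.55 CPM (1.68). Cacna1c was at 26.2 and 29.1 CPM in the controls and 32.3 and 47.1 CPM in the Eed KO, and did not pass (0.52, adjusted p = 0.34 in edgeR).

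The inward rectifier Kcnj4 went from 0.580 and 0.382 to 1.56 and 1.56 CPM (log2 fold change 1.70) and the two-pore-domain channel Kcnk6 from 3.59 and 6.32 to 12.7 and 14.9 CPM (1.47). Kcnk4, another mechanically gated two-pore-domain channel, had 2 counts in the control stomach and 31 in the Eed KO, a ratio of 15.5 with a 95% counting interval of 3.94 to 134. A further 2 of the 17 were the A-type channel Kcnd2 (9.74 and 8.39 to 16.8 and 24.3 CPM, 1.18) and the auxiliary subunit Kcnab1 (9.56 and 7.42 to 17.3 and 22.6 CPM, 1.23). These 2 and Scn1a were named after their values were seen.

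The first of the 4 genes that fell was the G protein-gated rectifier Kcnj6, which had 17 and 23 counts in the control stomach libraries and 1 and 3 in the Eed KO (log2 fold change −3.24, SE 0.63, adjusted p = 0.023 in edgeR). The others were Kcnmb2, an auxiliary subunit that inactivates the large-conductance channel (14.8 and 12.5 to 4.43 and 3.04 CPM, −1.87), and the silent subunits Kcnf1 (10.0 and 9.69 to 3.67 and 3.13 CPM, −1.53) and Kcnv1 (3.88 and 4.36 to 2.25 and 1.62 CPM, −1.09). These falls are relative to the typical gene. With libraries scaled by their spike-in RNA, the median of all genes rose by 2.39 on the log2 scale in the Eed KO stomach (1.85 in the intestine), and Kcnmb2, Kcnf1 and Kcnv1 then stood at 0.42, 0.81 and 1.19. Measured against that shift, every called channel gene kept its direction. Kcnj8 passed the adjusted p but not the fold threshold (217 and 180 to 125 and 105 CPM, −0.79, adjusted p = 0.019 in edgeR).

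These counts depended on the replicates. The 17 genes that rose became 3 without control stomach replicate 1, 3 without control stomach replicate 2, 11 without Eed KO stomach replicate 1 and 2 without Eed KO stomach replicate 2. The 4 that fell became 0, 0, 2 and 0, although 14 to 17 of the 17 and 3 or 4 of the 4 kept their direction and a fold change above 2. The study itself normalized its counts by the spike-ins with RUV-seq before DESeq2, without stating the number of factors. With 1 factor of unwanted variation from the spike-ins in DESeq2, the setting here nearest to that, the counts were 2 and 3, against 372 and 341 over all genes. Only 1 of the genes called above kept its call there, and 20 kept their direction alone. With spike-in scaling the counts were 81 and 0, against 15419 and 19 over all genes.

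In the embryonic intestine 7 channel genes rose in the Eed KO and none was called lower, at an adjusted p under 0.05 in edgeR. Of all genes tested, 2.38% were called higher and 0.228% lower, and of the tested channel genes 7.95% were called higher, with a median log2 fold change of 0.55 against 0.01. DESeq2 also called none lower, and 35 of the 88 had an unadjusted p under 0.05 in either direction in edgeR (39.8%, against 14% of all genes). Values are given for 5 of the 7. Kcnh3 was at 0.450 and 1.11 CPM in the control intestine and at 3.64 and 5.02 CPM in the Eed KO (log2 fold change 2.5, SE 0.47, adjusted p = 0.036 in edgeR). Kcna7 was at 0.421 and 0.236 against 1.5 and 1.06 CPM (1.93) and Scn8a at 2.67 and 3.50 against 6.41 and 6.28 CPM (1.04). These 3 genes passed in both organs.

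Scn7a and Kcnh5, both stomach-biased in the controls, also rose. Kcnh5 had 0 counts in both control intestine libraries and 16 and 10 in the Eed KO intestine, at least 7.76-fold higher against a floor of 3 counts over the control libraries, and stayed below the 54 and 45 counts of the control stomach. Scn7a went from 0.309 and 0.168 to 2.61 and 0.913 CPM (log2 fold change 2.85, adjusted p = 0.047 in edgeR). Kcns3 was at 1.21 and 1.75 CPM in the control intestine, and its log2 fold change of 1.16 in the Eed KO did not pass (adjusted p = 0.10). Kcnk3, the leading intestine gene, was at 172 and 249 CPM in the Eed KO intestine and likewise did not pass (0.26, adjusted p = 0.77).

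The count of 7 became 0 without control intestine replicate 1, 1 without control intestine replicate 2, 4 without Eed KO intestine replicate 1, and 2 without Eed KO intestine replicate 2, the library with the high Myh11. It became 4, 3, 4 and 4 without each stomach library (control 1 and 2, Eed KO 1 and 2), whereas 6 or 7 of the 7 kept their direction and a fold change above 2 each time. It was 15 in DESeq2, 18 with no filter on low counts and 74 with spike-in scaling, against 628, 734 and 13664 over all genes. Markers of other cells moved too in both organs. The neuronal gene Stmn2 rose from 1.21 and 1.35 to 22.7 and 11.2 CPM in the intestine and from 5.28 and 4.05 to 38.5 and 44.3 CPM in the stomach. The sum of the 12 neuronal and neural crest markers went from 11 and 10.3 to 38.1 and 21.6 CPM and from 16.4 and 19.1 to 53.9 and 64.3 CPM. Stmn2 was the larger part of each Eed KO sum of these markers. Of the 11 tested, only Stmn2 passed, but 8 were above 0 on the log2 scale in the intestine and 10 in the stomach. Among those that did not pass, Snap25 was at 0.261 and 0.535 CPM in the control stomach and 0.993 and 1.34 CPM in the Eed KO stomach, Tubb3 at 0.435 and 1.25 against 1.61 and 2.33 CPM, and Sox10 at 0.348 and 1.15 against 0.590 and 1.07 CPM. Endothelial markers summed to 15.5 and 20.5 CPM in the control intestine and 48.6 and 49.4 CPM in the Eed KO intestine, with 2 of 6 called. In the stomach 4 of 6 were called, and they went from 15.4 and 14.9 to 25.4 and 46.1 CPM. The part of these cells in the channel changes was not tested.

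**Figure D4:**
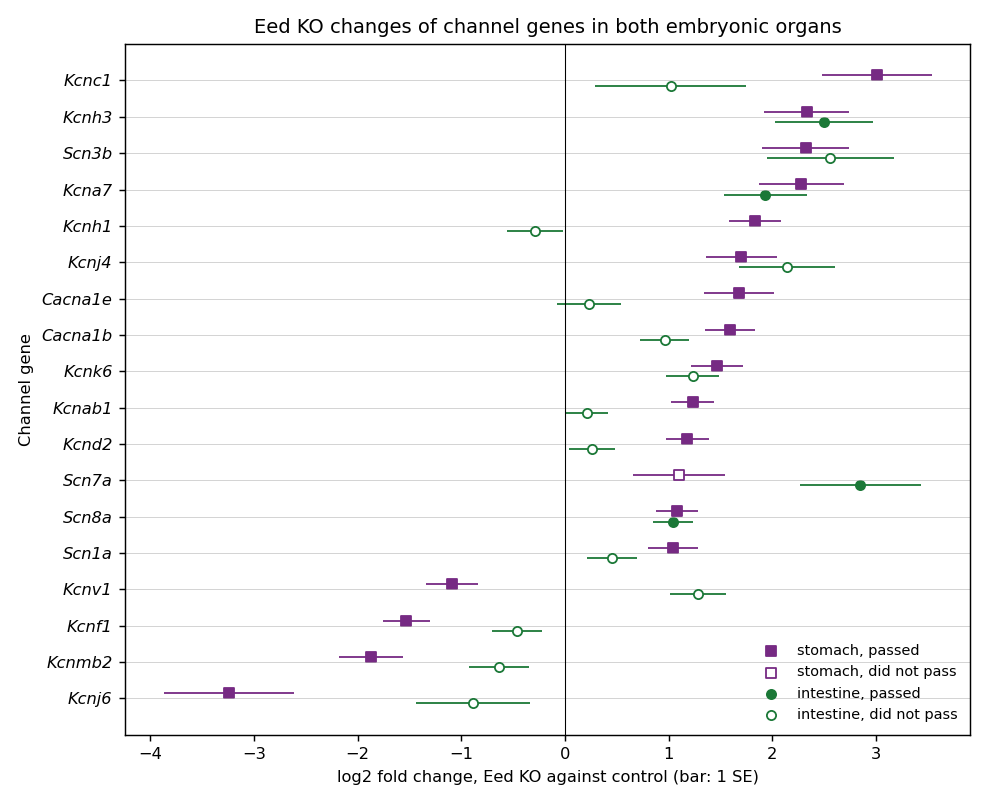
The log2 fold change of Eed KO against control (horizontal axis, bars 1 SE) is plotted for 18 of the channel genes called in at least 1 embryonic organ leaving out Kcnh5 and Kcnk4 for their 0 to 2 counts in a control group, squares for the stomach and circles for the intestine, filled where the gene passed. Kcnh3, Kcna7 and Scn8a are filled for both organs, Kcnh1 and Kcnv1 lie on opposite sides of 0 in the organs, and with spike-in scaling Kcnmb2, Kcnf1 and Kcnv1 move to the right of 0 in the stomach.

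The difference between the Eed KO changes of the organs was tested directly, as an interaction in the same fit and at an adjusted p under 0.2. Of all genes, 0.271% were called with a higher and 0.191% with a lower change in the stomach, and of the 88 channel genes 1 in each direction. Kcnh1, which rose in the stomach, was at 2.47 and 2.12 CPM in the control intestine and 1.69 and 2.08 CPM in the Eed KO intestine, and its changes differed by 2.11 on the log2 scale (SE 0.37, adjusted p = 0.12 in edgeR). Kcnv1, which fell in the stomach, was at 0.843 and 0.707 CPM in the control intestine and 2.06 and 1.71 CPM in the Eed KO intestine, and its changes differed by −2.36 (SE 0.37, adjusted p = 0.083). In the Eed KO the Kcnv1 levels of the organs overlapped, at 2.06 and 1.71 CPM in the intestine and 2.25 and 1.62 CPM in the stomach. The other genes called in 1 organ alone were not shown to differ between the organs in this fit. Neither call held at the 0.2 threshold when a control library of either organ or Eed KO stomach replicate 2 was left out, and the Kcnh1 call was also lost without Eed KO intestine replicate 1, with 0 calls in that direction.

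Partners outside the symbol pattern were counted in the same tests, as 38 genes that cover calcium channel subunits, pacemaker and leak channels, sulfonylurea receptors and calcium release channels. Of the 30 tested in the embryo, 5 rose and none fell in the Eed KO stomach, against the 4.84% of all genes called higher there. They were Hcn2, a pacemaker channel (0.754 and 1.12 to 2.63 and 3.89 CPM, log2 fold change 1.79), Abcc8, a sulfonylurea receptor (2.67 and 1.84 to 6.63 and 9.49 CPM, 1.84), Unc79, a subunit of the sodium leak channel (1.63), Lrrc55, an auxiliary subunit of the large-conductance channel (1.73), and the calcium channel subunit Cacnb4 (1.17). In the Eed KO intestine none of the 30 passed in edgeR, while 8 had an unadjusted p under 0.05 (26.7%, against 14% of all genes). Between the control organs Nalcn, the sodium leak channel itself, was at 0.140 and 0.236 CPM in the intestine and 3.59 and 3.57 CPM in the stomach (log2 difference −4.25).

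In the libraries labelled adult Eed KO, 11 channel genes were higher and 6 lower than in the adult controls, among 47 tested, where 19.6% of all genes were called. Of all 15039 genes tested, 12.3% were called higher and 7.23% lower, and of the tested channel genes 23.4% and 12.8%, with a median log2 fold change of 0.35 against 0.00. The most abundant channel gene of the controls, Kcnj8, was among the lower ones, and the auxiliary subunit Kcne4 had the most counts among the higher ones. Inward rectifiers changed in both directions, with 3 higher and 2 lower of 5 tested, and 4 of 8 auxiliary subunits and 3 of 6 two-pore-domain channels were higher.

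Kcnj8 stood at 65.3 and 56.3 CPM in the adult controls and at 17.2 and 20.1 CPM in the libraries labelled Eed KO (log2 fold change −1.71, SE 0.21, adjusted p = 0.0019 in edgeR), and its sulfonylurea receptor Abcc9 went from 46.2 and 36.1 to 17.2 and 20.8 CPM (−1.11). Kcnk2 was at 65.1 and 60.7 against 18.2 and 8.43 CPM (−2.25, SE 0.36, adjusted p = 0.0053), and Kcns3 at 21.7 and 29.7 against 6.52 and 5.57 CPM (−2.09, SE 0.29, adjusted p = 0.0033). In each case both control libraries lay above both others. Kcnj5, a G protein-gated rectifier, had the largest fall, from 11.1 and 15.4 to 1.00 and 1.70 CPM (−3.27). Kcnn3 went from 52.2 and 53.0 to 19.9 and 24.1 CPM (−1.26) and Cacna1d from 12.3 and 10.4 to 5.32 and 2.63 CPM (−1.53). Scn7a (−0.89) and Kcnk3 (−0.82) passed the adjusted p in edgeR, at 0.022 and 0.045, but not the fold threshold.

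Among the genes that were higher, the auxiliary subunit Kcne4 was at 50.5 and 57.6 CPM in the controls and 139 and 273 CPM in the libraries labelled Eed KO (log2 fold change 1.93, SE 0.33, adjusted p = 0.0066 in edgeR), and there it was the most abundant channel gene, with 37.1% of their summed TPM. Kcnj10, a rectifier best known from glia, went from 0.439 and 1.19 to 33.1 and 23.9 CPM (5.10, SE 0.48, adjusted p = 0.00060). Kcnj16, which forms mixed channels with Kcnj10, rose from 2 counts in each control to 126 and 25 counts, 12.6 and 1.93 CPM (5.57, SE 1.12, adjusted p = 0.013), and Kcnj2 from 0.146 and 0.701 to 3.11 and 4.10 CPM (3.05). Kcnj16 (chr11:110968033-111027968) and Kcnj2 (chr11:111066164-111076821) are neighbours in the authors' gene models with 38195 bp between them, both on the plus strand, and their exons overlap no other gene.

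Of the two-pore-domain channels, Kcnk13, known from microglia, went from 3.59 and 1.54 to 17.6 and 16.8 CPM (log2 fold change 2.74), Kcnk1 from 5.34 and 2.94 to 8.43 and 18.1 CPM (1.68) and Kcnk7 from 6.81 and 5.75 to 13.55 and 17.1 CPM (1.29). Kcnip3, a calcium-binding auxiliary subunit that also acts as a transcriptional repressor, went from 4.54 and 4.69 to 23.1 and 19.2 CPM (2.19). Kcnab1 was at 23.0 and 22.7 against 67.5 and 61.7 CPM (1.5) and Kcnmb1, the smooth muscle subunit, at 29.6 and 39.0 against 53.3 and 84.6 CPM (1.01, adjusted p = 0.039 in edgeR). Cacna1f, the L-type channel of the retina, had 2 counts in the controls and 30 in the libraries labelled Eed KO, a ratio of 18.3 with a 95% counting interval of 4.64 to 158. Kcnma1 was at 0.951 and 2.1 against 2.51 and 2.94 CPM and did not pass (0.83, adjusted p = 0.38 in edgeR).

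Marker lists moved with these changes. All 5 macrophage and leukocyte markers that were found rose, Ptprc from 64.3 and 57.2 to 1080 and 925 CPM. The 7 mesenchymal markers summed to 8890 and 9190 CPM in the controls and 3730 and 2630 CPM in the libraries labelled Eed KO, and 3 of 6 tested fell. The 4 pericyte markers summed to 13300 and 11400 against 4400 and 3140 CPM, with 2 of 4 lower. Nearly all of this sum was Rgs5, at 13200 and 11300 against 4330 and 3070 CPM. Notch3 lay on the other side, at 19.2 and 19.6 against 25.9 and 29.3 CPM. The 8 smooth muscle markers summed to 1900 and 2340 against 3230 and 3820 CPM, with 3 of 8 higher, and the 12 neuronal markers to 7.39 and 6.31 against 37.4 and 29.6 CPM, with 2 of 7 tested higher. All 7 of these lay above 0 on the log2 scale, and Elavl4 was at 0.146 and 0.210 against 9.94 and 8.27 CPM, whereas Sox10 stayed at or below 0.140 CPM. Their part in the channel changes was not tested, and a change in the sorted cells and a change within cells cannot be told apart here. The adult libraries were counted without strand. Of the 17 genes, Kcnk2, Cacna1d and Kcnab1 share 12.2%, 5.6% and 2.34% of their exon length with a gene on the other strand, each of which was at or below 0.911 CPM in the adult libraries. With spike-in scaling the 11 higher and 6 lower genes became 6 and 7, against 1154 and 1321 over all genes. Fewer genes were called higher whichever adult library was left out, while all 17 kept their direction. The labelled Eed KO replicate 2 held 691 CPM of pancreas markers against 10.8 to 20.6 CPM in the others, and Cpa1 alone was at 690 CPM in it.

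**Figure D5:**
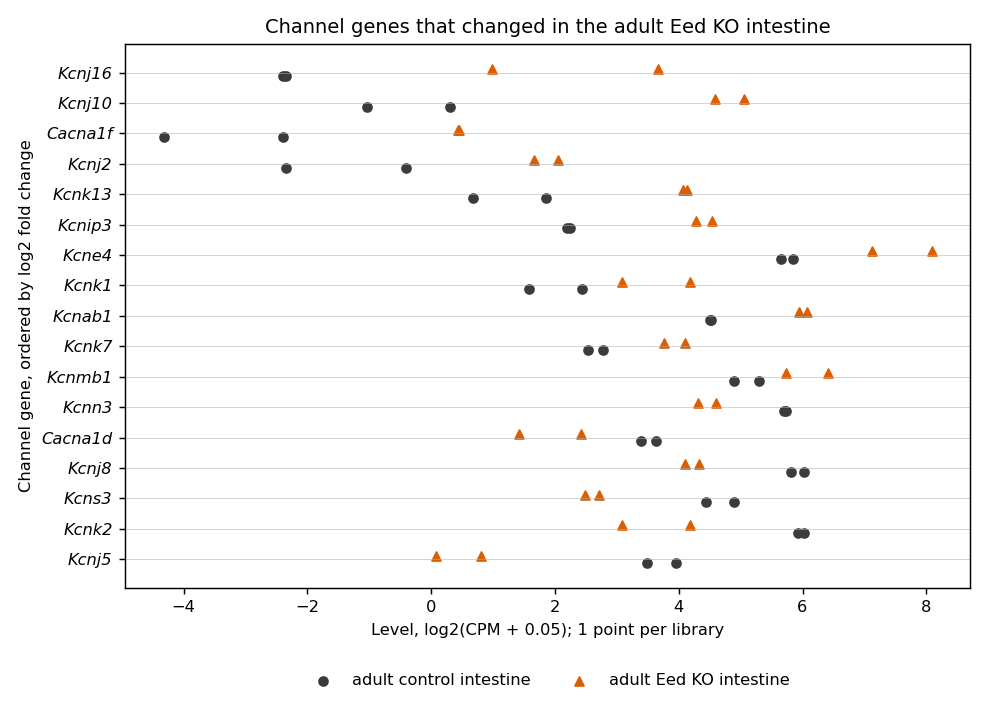
The 17 channel genes that differed in the adult intestine are plotted as log2(CPM + 0.05) (horizontal axis), with 1 point for each library, circles for the controls and triangles for the libraries labelled Eed KO. The 11 genes that were higher lie at the top, led by Kcnj16 and Kcnj10, and the 6 that were lower at the bottom, with Kcnj5 lowest. The genes were called on these same libraries, so the gap between their groups adds no evidence.

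Of the partners, 15 were tested in the adult. Ryr1, a calcium release channel, was higher (0.951 and 1.26 to 4.32 and 3.94 CPM, log2 fold change 1.89), and Abcc9, Cacnb3 (26.1 and 35.4 to 15.4 and 9.82 CPM, −1.29) and Lrrc55 (47.0 and 41.5 to 10.1 and 4.64 CPM, −2.59) were lower, against 12.3% and 7.23% of all genes called in these directions.

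Some channel genes sit side by side in the authors' gene models. Scn1a, Scn9a and Scn7a lie in a row on chromosome 2 with 39239 and 38462 bp between them, and in the embryo Scn1a passed in the Eed KO stomach and Scn7a in the Eed KO intestine. Kcna1 lies inside the long Kcna5 model on chromosome 6, and Kcnmb1 inside that of Kcnip1 on the opposite strand of chromosome 11, with no shared exon in either pair. In the adult Kcnmb1 was higher in the libraries labelled Eed KO while its host was not called.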

How the data were processed

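The channel genes, subfamilies, partners and marker lists were chosen with earlier results of these data known. The authors aligned reads to mm10 and deposited raw counts per gene (stranded in the embryonic, unstranded in the adult libraries, with SIRV and ERCC spike-ins) and MACS2 peak lists with scores, fold enrichments (a ratio over background) and −log10 q-values, called on pooled replicates. Of these, fold enrichments and −log10 q-values were used. Counts were tested with edgeR 4.0.16 (quasi-likelihood, TMM scaling, filterByExpr, Benjamini-Hochberg over all genes), in 1 fit of the 8 embryonic libraries (16218 genes, biological coefficient of variation 15.8%) and 1 of the 4 adult libraries (15039 genes, 29.1%). An exact permutation test of 2 against 2 libraries cannot go below 0.333. A gene was called at an adjusted p under 0.05 (0.2 for the interaction) and a log2 fold change above 1. TPM used the exon lengths in the adult files. A count of 0 allows up to 3 counts per library (0.0757 to 0.0992 CPM in the embryo, 0.189 to 0.263 CPM in the adult), and such limits and intervals cover counting error only. Replicates of every group differed beyond sampling noise.

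Genes named were all called channel genes (the 12 with the largest change where more were called in a direction), the 10 most abundant in the embryonic and the 10 in the adult controls, Cacna1c, Cacna1h, Kcnma1, Kcnmb1, Kcnj8 and Kcnk3, and Eed. Some genes that this rule names are not reported here, although they remain in the counts. The fit was checked on simulated counts in which 200 genes had known changes. In the simulation of the stomach comparison on 15990 genes, 82.1% of genes changed by 2 on the log2 scale were recovered, and in that of the adult comparison on 14734 genes, 67.2%. Alternatives were DESeq2 1.42.0, RLE size factors, spike-in scaling, 1 spike-in factor in DESeq2, no filter, a replicate block, each library left out, other TPM thresholds and other peak rules. Of these, the spike-in factor in DESeq2 was nearest to the study's own normalization, which used RUV-seq on the spike-ins.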

Additional observations from a re-analysis of the deposited data

Results flagged for a closer look

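The Eed KO changes of 2 channel genes differed between the embryonic organs in the interaction test of edgeR, at adjusted p-values of 0.12 for Kcnh1, whose change was larger in the stomach by 2.11 on the log2 scale, and 0.083 for Kcnv1, whose change was lower in the stomach, with a difference of −2.36. In some further channel genes, both Eed KO libraries lay on one side of both controls in the embryonic intestine and on the other side in the adult intestine. How many of all genes did so was not counted, and only 4 of these channel genes are given. The 4 were Kcnk2 (log2 fold change 0.77 in the embryo and −2.25 in the adult), Scn7a (2.85 and −0.89), Kcnj5 (2.16 and −3.27) and Kcns3 (1.16 and −2.09). Of these 4, only Scn7a passed in the embryo and only Kcnk2, Kcnj5 and Kcns3 in the adult, and the difference between the ages was not tested. The embryonic value of Kcnj5 rests on 1 library, with 2 and 1 counts in the controls and 14 and 2 in the Eed KO, a ratio of 4.77 with a 95% counting interval of 1.37 to 25.6. Without Eed KO intestine replicate 1 its log2 fold change was 0.30. The embryonic value of Kcnk2 was 0.42 without Eed KO intestine replicate 2. The adult values come from libraries in which the macrophage and leukocyte markers were many times higher than in their controls.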

How the results depend on the processing

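Spike-in scaling raised the median log2 fold change of all genes by 2.39 for the Eed KO stomach and by 1.85 for its intestine. It moved that median by 0.30 between the control organs, 0.53 in the interaction and −0.42 in the adult. The channel genes called higher and lower were then 81 and 0 in the Eed KO stomach and 74 and 0 in its intestine. Over all genes these counts were 15419 and 19, and 13664 and 24, so nearly every gene was called higher. Between the organs 0 and 2 channel genes were called (70 and 85 over all genes), and in the interaction 0 and 0 (20 and 0). In the adult 6 and 7 were called (1154 and 1321 over all genes). Kcnf1, Kcnmb2 and Kcnv1 in the Eed KO stomach then changed sign, to 0.81, 0.42 and 1.19. With 1 spike-in factor in DESeq2 the Eed KO stomach had 2 higher genes (372 over all genes) and the Eed KO intestine 1 lower gene (166). The interaction then had 2 higher and 5 lower (106 and 138 over all genes). DESeq2 alone gave 15 higher in the intestine (628 over all genes) and 3 and 3 in the interaction (108 and 99). No filter on low counts gave 18 (734 over all genes) and 2 and 4 (120 and 117). Apart from the construction of these fits, the cause was not tested. The counts of expressed genes at 0.5 and 2 TPM and of promoter peaks under 3 other rules, and those with RLE size factors, stayed within 1.5 times the values reported.

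Leaving out each library in turn gave 2 to 5 genes higher and 5 to 9 lower between the control organs, 2 to 17 higher and 0 to 4 lower in the Eed KO stomach, 0 to 4 higher and 0 lower in the Eed KO intestine, 0 to 2 in each direction of the interaction, and 6 to 10 higher and 5 to 7 lower in the adult. These fits leave 1 library in a group, which is assumed to vary like the others. Over all called channel genes, no direction changed when a library was left out, although many values no longer passed.

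Replicate numbers are shared between groups, but the labels do not say what they mark, and with 2 pairs per comparison the pairing could not be established. Deviations of same-numbered libraries correlated at 0.370 between the control organs, 0.748 between the Eed KO organs, 0.138 to 0.282 between genotypes and −0.0823 in the adult. With the replicate number as a block, 13 channel genes were called higher in the Eed KO intestine and 2 and 3 in the interaction, and with a block within each genotype 4 and 6 in the interaction; the other counts stayed within 1.5 times.

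At 11404712 to 15903642 counts, the adult libraries left 68 channel genes untested, and differences among those were not detectable at this depth.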

Other observations

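The marker lists gave further values beside the channel genes. Markers of interstitial cells of Cajal summed to 515 and 563 CPM in the control intestine and 372 and 431 CPM in the control stomach, and to 320 to 385 CPM in the Eed KO embryos, with Etv1 alone called between the control organs and none in the Eed KO. Mesothelial markers summed to 231 to 371 CPM in the embryonic libraries and 2.31 to 12 CPM in the adult ones, epithelial markers to 50.4 to 95.4 and 23.5 to 57.1 CPM, skeletal muscle markers to 1.99 to 4.99 and 2.71 to 13.4 CPM, and erythroid markers to 0.137 to 7.05 and 0.659 to 3.01 CPM. Embryonic mesenchymal markers summed to 11100 to 19200 CPM, embryonic pericyte markers to 583 to 1070 CPM, embryonic pancreas markers to 0.435 to 1.95 CPM, and adult endothelial markers to 102 to 220 CPM.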
